A study of Mus musculus with 17 samples.

Results

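The genes described here handle cholesterol and lipoproteins in the retinal pigment epithelium (RPE), the pigmented cell layer behind the photoreceptors. They are the 9 genes Apoe, Apob, Mttp, Abca1, Abcg1, Nr1h2, Scarb1, Cd36 and Plin2, taken by symbol from the 22253 genes of the count table. The study asked how Serpine3-expressing cells of the peripheral RPE differ from other RPE cells, and collected 17 RNA-seq libraries for this. All 17 came from Serpine3GFP/+ mice of the C57BL6/J background at 2 months of age, with no injury described for them, and each was a small pool of cells picked by hand under a microscope. The 3 groups were GFP+ RPE cells of the peripheral part of the eyecup (6 libraries), GFP- RPE cells of the same part (5 libraries) and GFP- RPE cells of the central part (6 libraries). GFP is written into the Serpine3 gene in this allele, so cells of every group carried 1 disrupted Serpine3 copy, and GFP+ cells were picked because they used that gene. The labels give 10 to 15 cells per pool and number the animals, called mouse 1 to mouse 7 here. Mice 1, 2, 4, 5 and 7 gave a library of each group, mouse 3 only a GFP+ and mouse 6 only a central library, and mouse 1 carries 2 animal numbers.

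As background, the RPE takes up cholesterol from lipoproteins of the blood and from the outer segment tips of photoreceptors that it engulfs, and returns lipid to the retina and the choroid. Apolipoproteins such as ApoE carry the lipid outside the cell, ABC transporters load it onto them, scavenger receptors take it up, and perilipins coat the droplets that hold what is stored. The liver X receptors, which sense oxysterols, bind DNA together with RXR and raise transcription of the efflux transporters, for which Abca1 and Abcg1 are textbook targets.

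Promoters are shown for Apoe, the most abundant member, for Abca1, an efflux transporter with a lower mean level in GFP+ RPE, and for Plin2, the droplet coat gene. Each window is a RefSeq sequence of GRCm38.p6, 300 bases long, in the direction of the gene and mostly before its start site. Capitals mark the motif matches. Positions count from the start site, with negative numbers before it.
Apoe: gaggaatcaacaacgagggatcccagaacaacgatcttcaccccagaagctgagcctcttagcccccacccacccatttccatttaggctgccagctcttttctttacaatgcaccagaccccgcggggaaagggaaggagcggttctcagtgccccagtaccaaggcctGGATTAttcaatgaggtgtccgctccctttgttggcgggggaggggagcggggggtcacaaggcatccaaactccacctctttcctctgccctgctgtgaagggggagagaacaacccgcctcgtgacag
Abca1: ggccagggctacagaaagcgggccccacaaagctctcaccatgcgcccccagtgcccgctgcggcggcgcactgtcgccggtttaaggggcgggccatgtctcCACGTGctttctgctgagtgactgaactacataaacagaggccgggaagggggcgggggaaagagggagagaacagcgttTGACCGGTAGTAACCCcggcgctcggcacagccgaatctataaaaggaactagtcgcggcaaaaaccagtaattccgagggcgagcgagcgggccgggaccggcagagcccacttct
Plin2: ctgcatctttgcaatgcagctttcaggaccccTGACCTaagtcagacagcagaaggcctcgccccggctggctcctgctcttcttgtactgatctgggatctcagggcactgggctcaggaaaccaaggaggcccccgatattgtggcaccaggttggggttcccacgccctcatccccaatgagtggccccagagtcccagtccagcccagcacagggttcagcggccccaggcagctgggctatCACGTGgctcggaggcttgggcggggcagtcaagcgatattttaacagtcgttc
The windows lie at chr7:19699139-19699438, chr4:53159846-53160145 and chr4:86670010-86670309, each on the minus strand. The letters searched on both strands were AGGTCA (the core hexamer that nuclear receptors bind, liver X receptors among them), CACGTG (the E-box that MITF and TFEB bind), TAATCC (bound by OTX2) and the DR4 element, which is 2 copies of AGGTCA in the same direction with 4 bases between them. The Apoe window shown held TAATCC on its minus strand with its first base at -80. Apoe windows 2 and 3 of the set, not shown, held none of the motifs. In the Abca1 window CACGTG began at -147, and in the Plin2 window CACGTG began at -4 and AGGTCA lay on the minus strand at -218. The Cd36 window held AGGTCA at -228, and none of the motifs was found in the windows of Apob, Mttp and Nr1h2. Among all 32851 windows, 16.3% held AGGTCA, 7.15% held CACGTG and 7.06% held TAATCC. An exact DR4 element was in no member window and in 5 windows of all (0.0152%). With up to 3 mismatches, a search added after the exact one, a DR4-like match began at -67 on the minus strand of the Abca1 window, as did one or more matches in 21.9% of all windows. These are matches of letters only. Abcg1 and Scarb1 had no promoter window in the set, so neither was searched for any motif.

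The libraries held 9896118 to 22467079 counts, so that 3 counts, the limit that a count of 0 allows, came to 0.116 to 0.554 CPM, the counts scaled to a common library total (by TMM over all 17 libraries). This limit covers counting error only, and PCR copies were counted. The 95% intervals of fold changes given further on come from edgeR's fits and include the spread between pools. The RPE marker list summed to 47950 to 98133 CPM, with Ttr and Rgr the highest. Over 3 counts in some library were found for 9 of its 10 genes, and Best1, at most 0.200 CPM, was the exception. The macrophage markers C1qa, C1qb, Lyz2 and Tyrobp and the endothelial marker Cldn5 were at 0 in every library. Other genes of those lists were found, since 3 of 10 macrophage and 5 of 10 endothelial genes had over 3 counts in some library. Csf1r, of the macrophage list, was at 35.6 to 146 CPM over the 17 libraries. The mitochondrial share of the counts was lowest in GFP+ libraries (7.95% ± 5.70, SD, n = 6), higher in peripheral GFP- libraries (19.7% ± 6.98, SD, n = 5) and highest in central ones (29.1% ± 12.2, SD, n = 6). It differed between GFP+ and central RPE by an exact permutation test on means (two-sided p = 0.00433, adjusted p = 0.0130 over 3 comparisons) and between GFP+ and peripheral GFP- RPE (exact p = 0.0130, adjusted p = 0.0195). It was not shown to differ between the GFP- groups (exact p = 0.152). The central library of mouse 5 was the most extreme, with 47.3% mitochondrial counts, 5392 genes with at least 10 counts and a TMM factor of 0.547. Central libraries of mice 7 and 4 came next, with 37.0% and 32.4% mitochondrial counts, 6430 and 6681 genes and factors of 0.726 and 0.700. The median number of such genes was 7526 in central, 9950 in peripheral GFP- and 9386.5 in GFP+ libraries. Leaving out mouse 5 therefore does not remove this difference between the groups. In such pools a lower level can mean fewer cells using the gene or less RNA per cell, which cannot be told apart.

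Apoe was the most abundant member by far, Plin2 came next, and Apob was at or near 0 throughout. Levels of different genes are compared here as CPM per kilobase of annotated exon. On that scale the means over the 17 libraries were 1929 for Apoe, 69.2 for Plin2, 8.90 for Abca1, 7.15 for Nr1h2, 5.92 for Abcg1, 3.79 for Scarb1, 2.62 for Mttp, 0.261 for Cd36 and 0.00563 for Apob. Apoe exceeded Plin2 in 17 of 17 libraries, and these were the only neighbours in the order whose ranges did not overlap. Plin2 exceeded Abca1 in 16 of 17 libraries. From Abca1 to Scarb1 the order was not settled, since each of these genes exceeded the next in only 9 or 10 of 17 libraries and the ranks changed with the length of the longest transcript in place of all exons. Mttp exceeded Cd36 in 13 of 17 libraries.

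**Figure D1:**
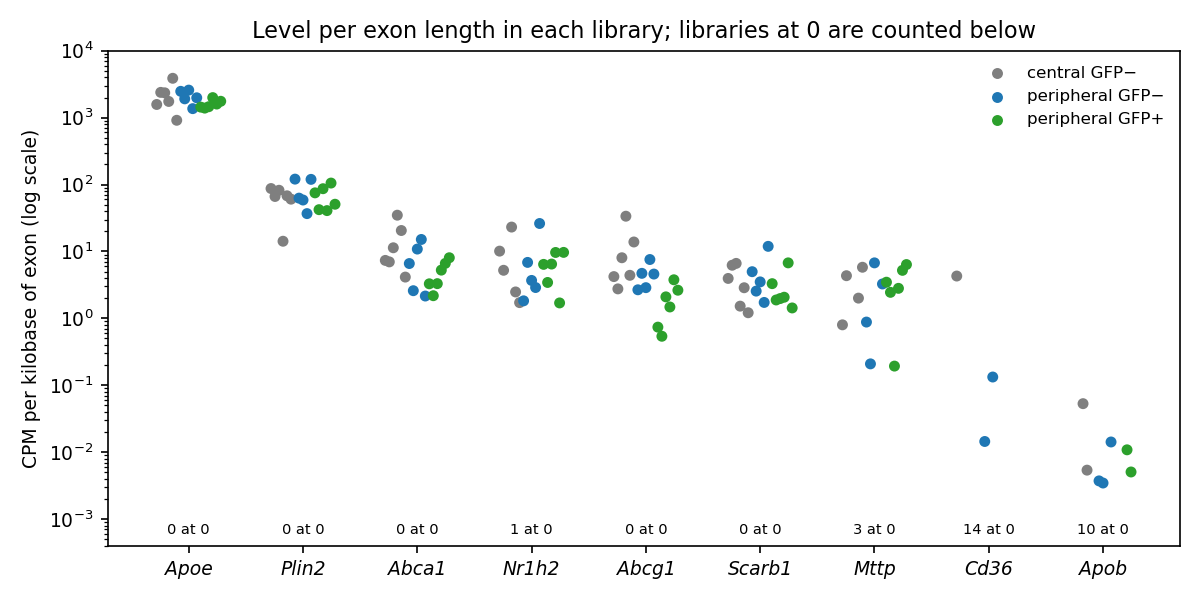
Level of each member in each library, as CPM per kilobase of exon on a log scale, with libraries coloured by group and the number of libraries at 0 written below each gene. Apoe lies above Plin2 in all 17 libraries, the 5 genes from Abca1 to Mttp overlap, and Cd36 and Apob are at 0 in 14 and 10 libraries.

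Apoe (chr7:19696109-19699188, minus strand, GRCm38) encodes an apolipoprotein that glia and RPE secrete. Its level in central RPE was 3364, 5103, 5024, 3734, 8285 and 1953 CPM in mice 1, 2, 4, 5, 6 and 7, the lowest and the highest of all 17 libraries. In peripheral GFP- RPE it was 5289, 4086, 5515, 2915 and 4237 CPM in mice 1, 2, 4, 5 and 7, and in GFP+ RPE it ranged from 2969 to 4261 CPM with a median of 3265. The GFP+ libraries were close to each other and lay inside the range of the central ones. Their coefficient of variation was 14.5%, against 23.7% in peripheral GFP- and 47.2% in central RPE. The fitted log2 fold change of GFP+ over central RPE was -0.46 (95% interval -1.02 to 0.10, edgeR adjusted p = 1.00) and that over peripheral GFP- RPE was -0.33 (95% interval -0.76 to 0.09). Between the GFP- groups it was -0.11 (95% interval -0.74 to 0.52). Within animals Apoe was lower in GFP+ than in central RPE in 4 of 5 mice and lower than in peripheral GFP- RPE in 4 of 5 mice, with other mice in the exception (mouse 7 and mouse 5). A 2-fold difference of Apoe between GFP+ and peripheral GFP- RPE, either way, lies outside the interval.

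Apob and Mttp act together in the assembly of lipoproteins, Apob as their structural protein and Mttp as the transfer protein that loads it with lipid. Apob (chr12:7977648-8016835) had 12 counts over all 17 libraries, with 4 counts in the central library of mouse 5 and at most 2 in any other. It was at or below the floor of 3 counts in 16 of 17 libraries and was removed from every fit as too low, so that no group difference was detectable at this depth (two-sided exact permutation tests on CPM, p from 0.610 to 0.935). Mttp (chr3:138089854-138144968) was detected above the floor in 14 of 17 libraries but varied widely. In central RPE it was 4.96, 26.9, 0, 0, 12.4 and 36.02 CPM in mice 1, 2, 4, 5, 6 and 7. In peripheral GFP- RPE it was 5.46, 1.30, 41.9, 0 and 20.3 CPM in mice 1, 2, 4, 5 and 7, and in GFP+ RPE 21.5, 15.2, 1.20, 17.4, 32.4 and 39.5 CPM in mice 1, 2, 3, 4, 5 and 7. All 6 GFP+ libraries held Mttp counts, but the 3 ranges overlapped almost fully. The log2 fold change of GFP+ over central RPE was 0.62 with a 95% interval from -2.15 to 3.38, so that neither a large rise nor a large fall can be told from these libraries. Over peripheral GFP- RPE it was 0.67 (95% interval -1.75 to 3.10), and between the GFP- groups -0.019 (95% interval -3.63 to 3.59). Exons of Mttp overlap those of Trmt10a and of the antisense gene Gm43691 on the other strand, and without a stated strand setting their reads cannot be told apart.

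Abca1 (chr4:53030787-53159895) encodes the transporter that loads cholesterol and phospholipid onto lipid-poor apolipoproteins. Its level in central RPE was 76.2, 72.3, 118, 361, 213 and 42.9 CPM in mice 1, 2, 4, 5, 6 and 7. Peripheral GFP- RPE gave 68.4, 26.8, 112, 157 and 22.3 CPM in mice 1, 2, 4, 5 and 7, and GFP+ RPE gave 34.0, 22.6, 34.2, 54.5, 68.7 and 83.5 CPM in mice 1, 2, 3, 4, 5 and 7. Central libraries were the highest and GFP+ libraries the lowest on average, with 3 of 6 GFP+ libraries below the lowest central one, so the groups overlapped. The log2 fold change of GFP+ over central RPE was -1.70 ± 0.52 (SE), with an adjusted p of 0.269 over 9286 genes by edgeR's quasi-likelihood test. Without the central library of mouse 5, the highest of all, it was -1.09 (adjusted p = 0.737). Within animals Abca1 was lower in GFP+ than in central RPE in 4 of 5 mice, mouse 7 being the exception, and lower in peripheral GFP- than in central RPE in 5 of 5 mice. The log2 fold change of peripheral GFP- over central RPE was -1.02 (95% interval -2.34 to 0.29) and that of GFP+ over peripheral GFP- RPE was -0.64 (95% interval -1.70 to 0.41).

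Abcg1 (chr17:31057675-31117988), which moves cholesterol onto lipoproteins that already carry lipid, showed the largest fold change of the members. In central RPE it was 30.7, 20.1, 58.8, 245, 32.1 and 101 CPM in mice 1, 2, 4, 5, 6 and 7. Peripheral GFP- RPE gave 19.5, 34.4, 20.99, 55.3 and 33.5 CPM in mice 1, 2, 4, 5 and 7, and GFP+ RPE gave 5.39, 3.94, 15.3, 10.8, 27.5 and 19.2 CPM in mice 1, 2, 3, 4, 5 and 7. In each comparison with a GFP- group, 5 of 6 GFP+ libraries lay below the lowest GFP- library, and the GFP+ library of mouse 5 was the exception. Abcg1 was lower in GFP+ than in central RPE in 5 of 5 mice, and lower than in peripheral GFP- RPE in 5 of 5 mice. The log2 fold change over central RPE was -2.75 ± 0.73 (SE), with an adjusted p of 0.121 in edgeR. DESeq2 gave -2.80 with an adjusted p of 0.0146, which also missed the limit of 0.01. Against peripheral GFP- RPE it was -1.26 (edgeR, adjusted p = 0.910), and for peripheral GFP- over central RPE it was -1.44 (edgeR, adjusted p = 1.00). Without the central library of mouse 5, the value of GFP+ over central RPE was -1.88 (edgeR, adjusted p = 0.581).

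**Figure D2:**
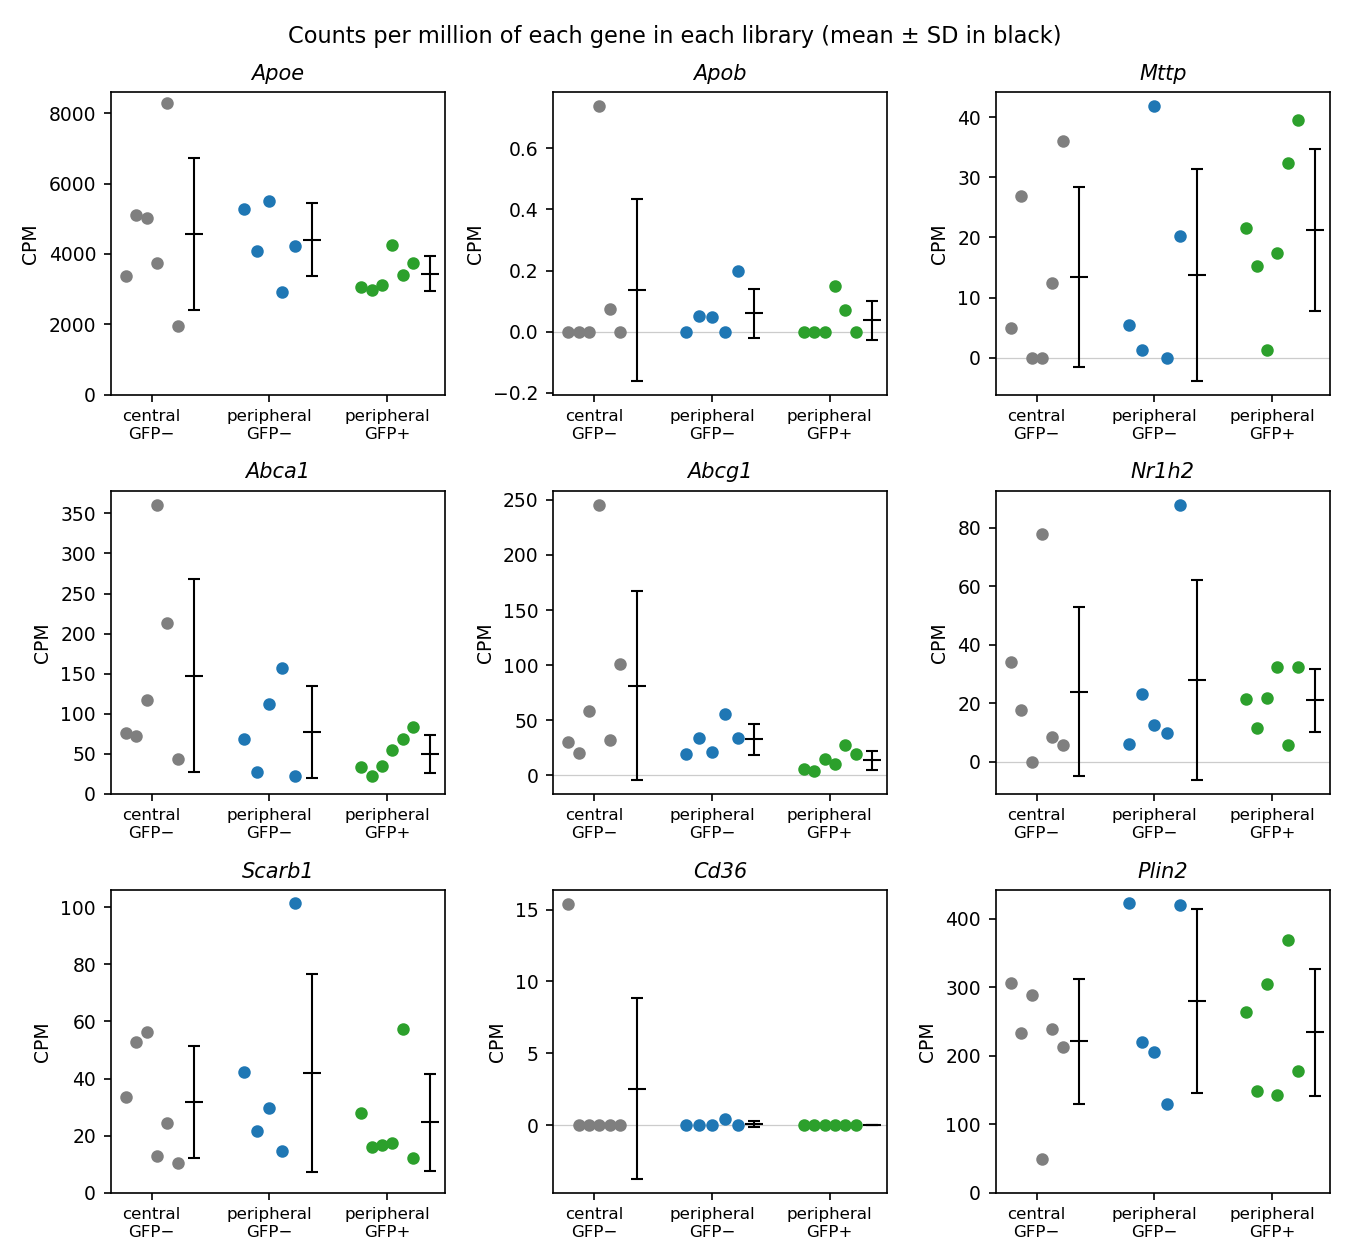
CPM of each member in each library, on a linear axis, in central GFP-, peripheral GFP- and peripheral GFP+ RPE, with points in order of mouse number and the group mean ± SD in black. Abca1 and Abcg1 are lowest on average in the GFP+ libraries, whose points overlap those of both GFP- groups, and Cd36 is high in a single central library.

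The counts of Abcg1 followed those of a set of other genes almost exactly. Of 7036 genes with a mean of at least 10 CPM, the 2 most like it over the 17 libraries were Ddhd1, a phospholipase (Pearson r = 0.998 on log2(CPM + 1)), and Nova1, an RNA-binding protein of neurons (r = 0.998). Abcg1 had 2.90 to 4.07 counts for every 100 counts of Ddhd1 in all 17 libraries, a 1.40-fold range, whereas its own CPM spanned a 62.3-fold range. The coefficient of variation of that ratio was 8.88%, against 57.5% for Abca1 to Ddhd1 and 76.2% for Apoe to Ddhd1. Ddhd1 was picked for its likeness to Abcg1 and not to Abca1 or Apoe, so this contrast is a description and no test. Besides Abcg1, 60 genes reached an r of 0.98 with Ddhd1. Among them were 9 of the 10 olfactory and vomeronasal receptor genes compared, a family known for use in sensory neurons of the nose. These genes with Ddhd1 took 0.744% to 4.23% of the counts in GFP+ RPE, 2.95% to 7.57% in peripheral GFP- RPE and 2.65% to 18.3% in central RPE, and Abcg1 followed the log2 mitochondrial share as well (r = 0.895, n = 17). All points share the same library for both values, and the genes were picked for their likeness.

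Over central RPE, the 60 genes had log2 fold changes from -3.20 to -2.14 in GFP+ RPE with a median of -2.68, beside the -2.75 of Abcg1. Over peripheral GFP- RPE their median was -1.17, beside -1.26 for Abcg1. These genes were picked over the same libraries for their likeness to Ddhd1, so this nearness was set by the choice and tests nothing. The number of Abcg1 counts for every 100 of Ddhd1 was 3.35 ± 0.329 (SD, n = 6) in GFP+, 3.68 ± 0.275 (SD, n = 5) in peripheral GFP- and 3.70 ± 0.250 (SD, n = 6) in central RPE. Relative to Ddhd1, a scale chosen after seeing the data, the log2 difference of GFP+ from central RPE was -0.15 (exact permutation test, two-sided, p = 0.0584 and adjusted p = 0.143 over 3 comparisons). With the level of Ddhd1 as a covariate in the fit, chosen after seeing the data, the log2 fold change of Abcg1 over central RPE was -0.040 and that of Abca1 was -0.46 (edgeR, adjusted p = 1.00 for both). Ddhd1 was picked as the gene most like Abcg1 in these libraries. A value near 0 for Abcg1 on both scales followed from that choice and tests nothing. No stretch of at least 50 bases at 95% identity was shared between annotated transcripts of Abcg1 and those of Ddhd1 or the 60 genes. Where the reads counted for Abcg1 and for this set came from was not tested, so that the lower Abcg1 counts of GFP+ RPE are not separable here from the lower counts of the whole set. Abca1 was less close to it (r = 0.62 with Ddhd1 and 0.57 with the log2 mitochondrial share), and the other tested members had r from -0.47 to -0.04 with Ddhd1.

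**Figure D3:**
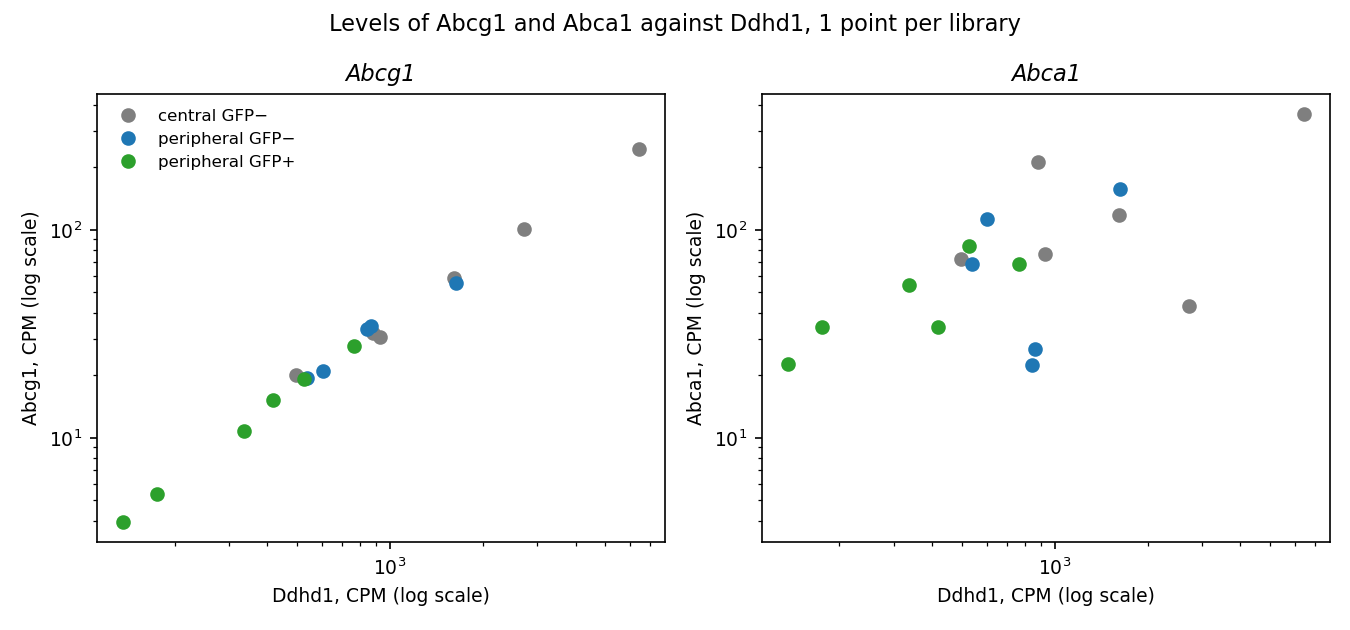
CPM of Abcg1 (left) and Abca1 (right) against CPM of Ddhd1, both on log scales, with 1 point per library coloured by group. The Abcg1 points lie along a line across all 3 groups (2.90 to 4.07 counts per 100 of Ddhd1), whereas the Abca1 points scatter. Ddhd1 was picked as the gene most like Abcg1, so the contrast is a description.

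Nr1h2 (chr7:44549616-44553951), the liver X receptor that most cells express, was found above the floor in 16 of 17 libraries. Central RPE gave 33.9, 17.5, 0, 77.6, 8.32 and 5.76 CPM in mice 1, 2, 4, 5, 6 and 7. Peripheral GFP- RPE gave 6.13, 23.0, 12.4, 9.69 and 87.8 CPM in mice 1, 2, 4, 5 and 7, and GFP+ RPE gave 5.70 to 32.5 CPM with a median of 21.6. Each GFP- group had 1 library far above the rest, and the GFP+ libraries lay within the central range. The log2 fold changes of GFP+ RPE were -0.38 (95% interval -2.67 to 1.91) over central and -0.36 (95% interval -1.89 to 1.17) over peripheral GFP- RPE, and 0.06 (95% interval -2.53 to 2.65) between the GFP- groups. A 2-fold difference either way is therefore within the error.

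Scarb1 and Cd36 encode scavenger receptors, Scarb1 that for high-density lipoprotein and Cd36 that for oxidized lipoprotein, fatty acids and outer segments. Scarb1 (chr5:125277087-125341094) was 33.6, 52.9, 56.4, 12.9, 24.4 and 10.3 CPM in central RPE of mice 1, 2, 4, 5, 6 and 7. Peripheral GFP- RPE gave 42.3, 21.7, 29.8, 14.7 and 101 CPM in mice 1, 2, 4, 5 and 7, and GFP+ RPE gave 28.1, 15.996, 16.8, 17.6, 57.4 and 12.2 CPM in mice 1, 2, 3, 4, 5 and 7. The 3 ranges overlapped, with 5 of 6 GFP+ libraries between 12.2 and 28.1 CPM. Its log2 fold change was -0.41 over central RPE (95% interval -1.87 to 1.06) and -0.74 over peripheral GFP- RPE (95% interval -1.95 to 0.47), and for peripheral GFP- over central RPE it was 0.36 (95% interval -1.20 to 1.92). Annotated transcripts of Scarb1 share stretches of at least 50 bases at 95% identity with transcripts of 599 other genes, so some of its reads may be hard to place. Cd36 (chr5:17781690-17888801) had 183 counts in the central library of mouse 1 (15.4 CPM), 6 in peripheral GFP- RPE of mouse 5 and 1 in that of mouse 2. The other 14 libraries, all 6 GFP+ ones among them, had 0. It was too low for the fits, and no difference between groups was detectable (two-sided exact permutation tests on CPM, p from 0.364 to 1.00).

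Plin2 (chr4:86648386-86670060), which coats lipid droplets, was abundant in all groups. Central RPE gave 306, 233, 288, 49.9, 238 and 212 CPM in mice 1, 2, 4, 5, 6 and 7. Peripheral GFP- RPE gave 423, 220, 206, 129 and 420 CPM in mice 1, 2, 4, 5 and 7, and GFP+ RPE ranged from 143 to 370 CPM with a median of 221. The central library of mouse 5 was the lowest, and without it central RPE was at 256 ± 39.7 CPM (SD, n = 5), with all 5 libraries inside the GFP+ range. The log2 fold changes were 0.03 for GFP+ over central RPE (95% interval -0.72 to 0.77), -0.24 for GFP+ over peripheral GFP- RPE (95% interval -0.92 to 0.44) and 0.29 for peripheral GFP- over central RPE (95% interval -0.57 to 1.14). Changes beyond 2-fold of GFP+ RPE from either GFP- group lie outside these intervals. Scarb1 and Plin2 had the highest correlation among the members (r = 0.68, n = 17), from 0.59 to 0.88 within the groups. Apoe and Plin2 counts stood in ratios of 9.19 to 74.8, the highest in the central library of mouse 5.

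A gene was called at an adjusted p under 0.01 and a log2 fold change over 1 in either direction. Of the 9 members, 7 passed the filter on low counts and 0 were called in any comparison. The same rule called 4 of 9286 genes (0.0431%) for GFP+ over central RPE, 4 of 10102 (0.0396%) for GFP+ over peripheral GFP- RPE and 0 of 9535 (0.00%) for peripheral GFP- over central RPE. At an unadjusted p under 0.05 the members were Abca1 and Abcg1, both lower in GFP+ than in central RPE (2 of 7), where 3.66% of all genes tested were lower and 5.80% differed either way. In the other comparisons it was 0 of 7, beside 5.58% of genes for GFP+ over peripheral GFP- RPE and 2.70% for peripheral GFP- over central RPE. No tested member had group ranges that did not overlap, beside 1.13%, 1.29% and 0.755% of genes in the same order of comparisons. With the mouse as a replicate block, since the pools of a mouse share an animal label, the calls became 56 for GFP+ over central RPE (1 higher and 55 lower) and 0 for GFP+ over peripheral GFP- RPE, again without a member. Under the replicate block Abca1 was at -1.19 (edgeR, adjusted p = 0.866) and Abcg1 at -2.65 (edgeR, adjusted p = 0.198) over central RPE. DESeq2 called 206, 66 and 28 genes, with 0 members. The groups share libraries between comparisons, so these are not independent.

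**Figure D4:**
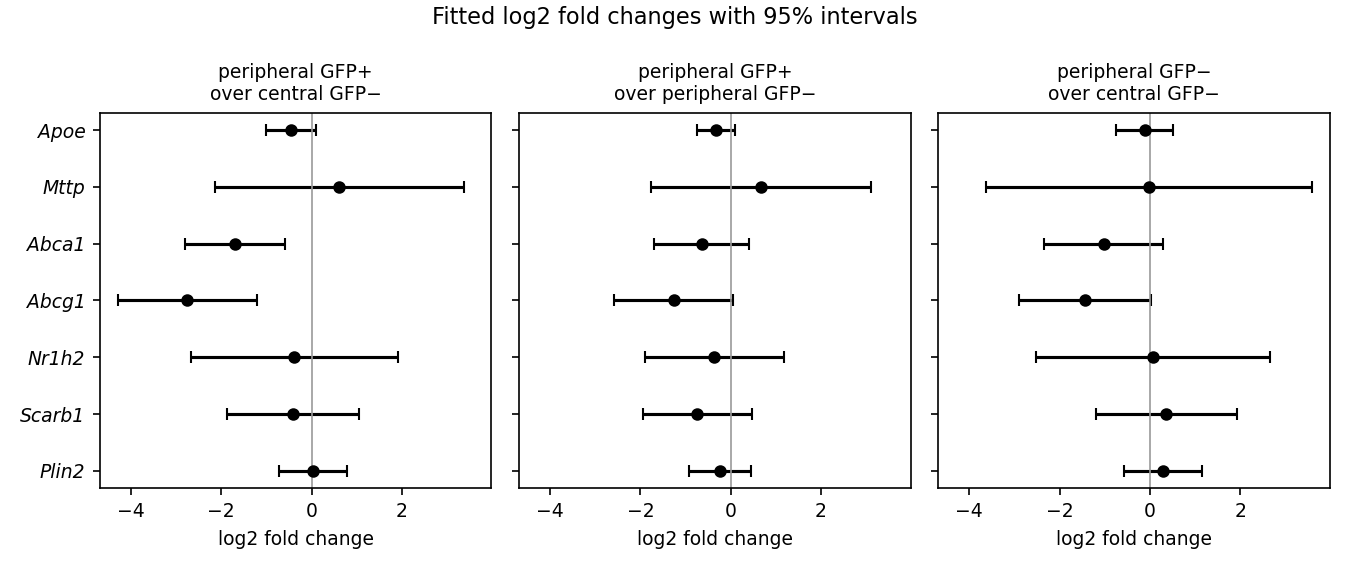
Fitted log2 fold changes of the 7 tested members with 95% intervals in the 3 comparisons, with the fitted value as a point and 0 as a line. Only the intervals of Abca1 and Abcg1 for GFP+ over central RPE exclude 0, before adjustment over all genes, and those of Apoe and Plin2 are the narrowest.

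The animal numbers fall into 2 runs, mice 1 to 3 and mice 4 to 7, whose meaning the labels do not give. Abca1 was lower in GFP+ than in central RPE in both, by a log2 fold change of -1.38 in mice 1 to 3 (edgeR, adjusted p = 0.634) and -1.50 in mice 4 to 7 (edgeR, adjusted p = 0.933). Abcg1 was at -1.75 in mice 1 to 3 (edgeR, adjusted p = 0.876) and -2.64 in mice 4 to 7 (edgeR, adjusted p = 0.435). The difference between the runs was not beyond the error for any of the 7 members (edgeR interaction, adjusted p = 1.00 for each).

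The genes whose pattern was most like that of the other members were less close than those of Abcg1. For Apoe they were Gip (r = 0.87) and Ptgds (r = 0.84), for Abca1 Atox1 (r = 0.82) and Mettl26 (r = 0.81), and for Plin2 Npm1 (r = 0.88) and Rpl10-ps3 (r = 0.84). Mttp was most like Taz (r = 0.87) and Rps6kb1 (r = 0.86), Scarb1 like Brms1l (r = 0.87) and Rcn1 (r = 0.81), and Nr1h2 like Ctdspl2 (r = 0.83) and Abcc5 (r = 0.82). Each pair holds the highest 2 of 7036 values over 17 libraries that differ in depth and composition, and is a description.

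Other genes of lipid handling, in 8 lists without the members, had 0 called genes in every comparison. Over central RPE, those with the largest differences at an unadjusted p under 0.05 were Npc2 and Clu above and Lipe and Lrp8 below. Npc2, which passes cholesterol out of the lysosome, was at 621 ± 96.7 against 311 ± 153 CPM (SD, n = 6 each, log2 fold change 0.95, edgeR adjusted p = 0.388). Clu, an apolipoprotein also known as clusterin, was at 7638 ± 2254 against 4375 ± 2069 CPM (SD, n = 6 each, log2 fold change 0.77, edgeR adjusted p = 0.534). Lrp8, a receptor for ApoE, was at 69.3 ± 20.1 against 136 ± 59.3 CPM (SD, n = 6 each, log2 fold change -1.03, edgeR adjusted p = 0.411). Across the 17 libraries the r with Ddhd1 was -0.59 for Npc2, -0.65 for Clu and 0.25 for Lrp8. The part of library composition in their differences was not tested. Lipe, hormone-sensitive lipase, was at 27.8 ± 13.8 against 164 ± 174 CPM (SD, n = 6 each, log2 fold change -2.73, edgeR adjusted p = 0.0729), and belongs to the 60 genes that followed Ddhd1 (r = 0.98), so that the same limit holds for it as for Abcg1.

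Against peripheral GFP- RPE, the genes with the largest differences at an unadjusted p under 0.05 were Gramd1c and P4hb above and Acsl3 and Lipe below. P4hb, the partner subunit of the Mttp protein, was at 264 ± 164 CPM in GFP+ (SD, n = 6) and 89.6 ± 23.7 CPM in peripheral GFP- RPE (SD, n = 5), a log2 fold change of 1.59 (edgeR adjusted p = 0.305). Across libraries it ran opposite to Ddhd1 (r = -0.85, n = 17), and the part of library composition in its difference was not tested. Acsl3, which activates fatty acids, was at 23.5 ± 20.5 CPM in GFP+ (SD, n = 6) and 94.6 ± 58.1 CPM in peripheral GFP- RPE (SD, n = 5), a log2 fold change of -1.99 (edgeR adjusted p = 0.808). Lipe was at 65.6 ± 29.3 CPM in peripheral GFP- RPE (SD, n = 5), with a log2 fold change of GFP+ over it of -1.23 (edgeR adjusted p = 0.708). Gramd1c, a sterol transfer protein, was at 0 to 10.6 CPM in GFP+ RPE, with 2 of 6 libraries at 0, and at 0 to 0.780 CPM (at most 14 counts) in peripheral GFP- RPE, with 2 of 5 libraries at 0 (edgeR adjusted p = 0.893). For peripheral GFP- over central RPE, Lipe was the only gene of the lists at that p, with a log2 fold change of -1.45 (edgeR adjusted p = 1.00).

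The cholesterol synthesis list covers the enzymes that make sterol from acetyl-CoA. All 20 of its genes were tested over central RPE, with 17 above and 3 below 0, a median log2 fold change of 0.52 in GFP+ RPE beside 0.00 over all genes tested, and 0 genes at an unadjusted p under 0.05. Over peripheral GFP- RPE 15 of 20 were above 0 (median 0.28 beside 0.01), and 11 of 19 for peripheral GFP- over central RPE (median 0.21 beside 0.01). Of all genes tested, 50.1%, 50.8% and 50.4% were above 0 in these comparisons, in the same order. Genes of a list can move together within libraries, and whether any list was shifted was not tested. Lipoprotein assembly partners were above 0 in 4 of 5 and 5 of 5 genes tested for GFP+ over central and over peripheral GFP- RPE. The sterol sensors and nuclear receptors had 5 of 12 and 5 of 13 above 0, with medians of -0.05 and -0.28. Of the apolipoprotein and remodelling list, 9 of 18 genes had at most 3 counts in every library and 4 or 5 were tested, with 2 of 4 above 0 for GFP+ over central and 1 of 5 for GFP+ over peripheral GFP- RPE.

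**Figure D5:**
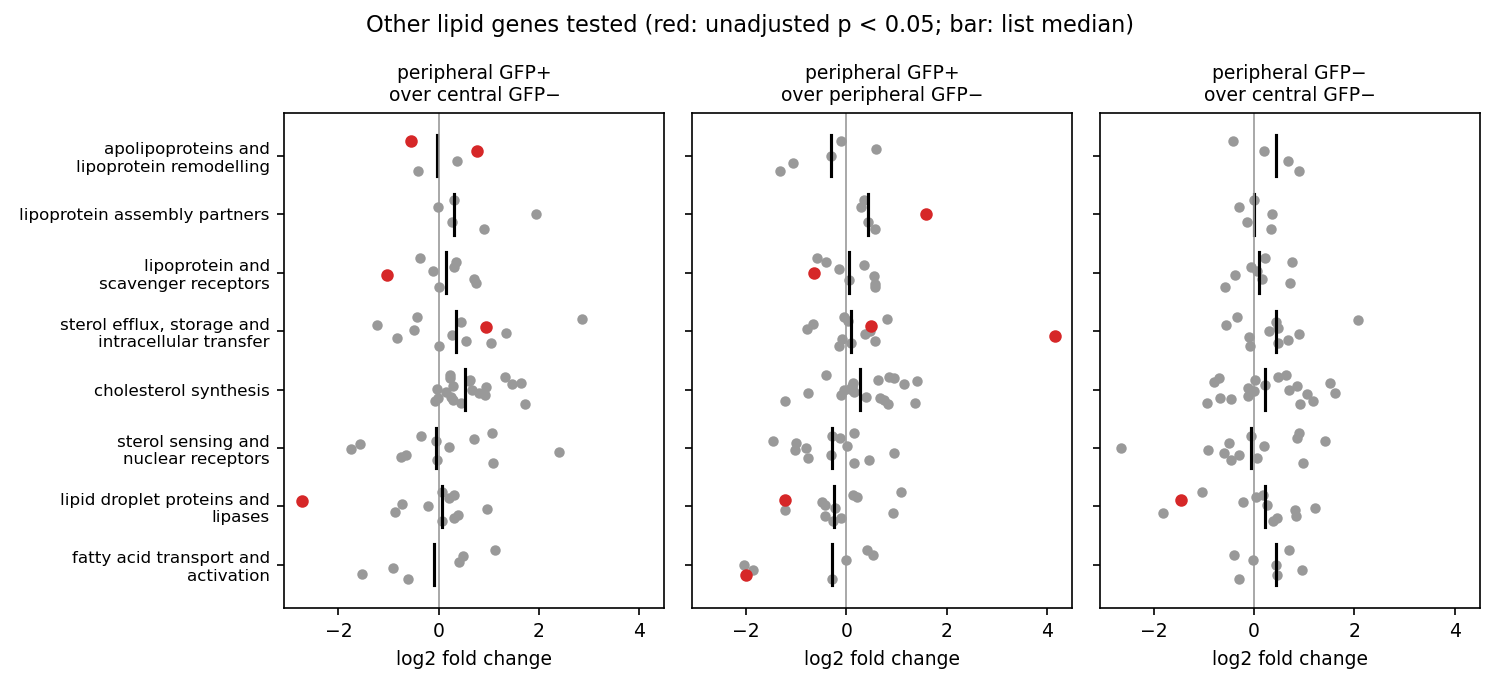
Fitted log2 fold changes of the tested genes of 8 other lipid lists in the 3 comparisons, with 1 point per gene, red where the unadjusted p was under 0.05, and the list median as a bar. The cholesterol synthesis genes lie mostly above 0 for GFP+ over central RPE (17 of 20, beside 50.1% of all genes tested), and Lipe is the lowest point of its list there.

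The macrophage list, whose cells also use Abca1, Abcg1, Cd36 and Apoe, had 3 of 10 genes with over 3 counts in any library. Its summed level was 38.1 to 111 CPM in GFP+, 105 to 146 CPM in peripheral GFP- and 68.4 to 116 CPM in central RPE, nearly all of it from Csf1r. Tyrobp, C1qa, C1qb and Lyz2 of that list were at 0 in all 17 libraries. Cd68 was above the floor of 3 counts in 2 libraries of each group, at up to 8.42 CPM in peripheral GFP- RPE. Ptprc was above that floor in 2 peripheral GFP- libraries and at 0 in the other groups. The endothelial list, whose cells use Cd36, summed to at most 26.99 CPM. In the central library of mouse 1, the one with 183 Cd36 counts, Kdr had 5 counts (0.421 CPM), above the floor of 3, Pecam1 had 2, Cdh5 had 1, and Plvap and Egfl7 had 0. Flt1 of the same list was at 3.53 CPM there and Cd68 of the macrophage list at 2.69 CPM. These were the highest central values of both genes, and Flt1 reached 13.4 CPM in GFP+ RPE. In GFP+ over central RPE the RPE markers Lrat (log2 fold change -0.79, edgeR adjusted p = 0.174) and Rpe65 (-0.78, edgeR adjusted p = 0.542) were lower at an unadjusted p under 0.05, and 1 RPE marker was higher at that p. This was Trpm1, a cation channel gene, at 7.32 to 47.2 CPM in GFP+ RPE and 0 to 0.554 CPM (at most 4 counts) in central RPE, ranges that did not overlap (edgeR adjusted p = 0.0733). Trpm1 was at 0.0794 to 33.3 CPM in peripheral GFP- RPE. The other RPE markers tested in that comparison did not pass that p. The list of rod and cone markers summed to medians of 120 CPM in GFP+, 159 CPM in peripheral GFP- and 216 CPM in central RPE. Mueller glia and astrocyte markers summed to 3596 to 5966 CPM, with Rdh10 and Car14 the highest and Gfap at 0 everywhere. Melanocyte and choroid stroma markers summed to 56.2 to 241 CPM. What part cell makeup had in the members' values was not tested.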

How the data were processed

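Polyadenylated RNA of hand-picked mouse RPE cells was sequenced in 17 libraries with a SMART-Seq kit. The deposited values were raw whole-number read counts, one row per symbol, and all 17 columns were matched to samples by name. The submitters' processing notes name fastp, Salmon and GRCm38.p6, so the counts may be rounded estimates. The annotation and strand setting are not given in the sources used here, and reads of overlapping or similar genes may be shared between them. The notes state no molecular identifiers.

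Groups and mice were taken from the labels. The methods give fewer cells per pool than the labels do. The members and lists were chosen with earlier results of these data known. Groups were compared in R 4.3.3 with edgeR 4.0.16, using filterByExpr, TMM scaling, the quasi-likelihood test on the libraries of both groups and Benjamini-Hochberg adjustment over all genes tested. The procedure was tested on simulated counts. CPM values used TMM factors over all 17 libraries. Single values were tested by exact two-sided permutation of the libraries (scipy version 1.17.1). P-values measure the spread between pools. Lists were described by counts and medians, with no set test. Of the wider lists, the text names the 2 largest rises and the 2 largest falls among genes with an unadjusted p under 0.05 in each comparison, and, for each member that itself had at least 10 counts in 9 libraries, the 2 genes most like it among genes with a mean of at least 10 CPM. RPE, endothelial, macrophage and glial markers and the genes that followed Ddhd1 were named after their values were seen.

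Alternatives were DESeq2 (version 1.42.0), median-of-ratios factors, mitochondrial genes removed before scaling, no filter, at least 10 counts in 5 libraries as the filter, a joint fit of the 3 groups, a replicate block for the mouse, a covariate for the run of animals, each run alone, each library left out, and the longest transcript as gene length. Ddhd1 as a covariate was chosen once the data had been seen, as the gene most like Abcg1. Same-numbered libraries carry the same animal label, which for mouse 1 names 2 animals, and over 15 pairs the correlation of their deviations from the group means was -0.0216 to 0.0907, with 0 above 0.1. Over 136 pairs of libraries, 0 were identical (highest r of log2(count + 1) 0.924).

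Gene positions are those of GENCODE M21 on GRCm38, in which 21853 of 22253 symbols (98.2%) were found. Promoter windows came from RefSeq (GRCm38.p6), which matched 7 of 9 members. Shared sequence was searched with blastn (version 2.17.0+) among annotated transcripts, and Python 3.11.15 drew the figures.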

Additional observations from a re-analysis of the deposited data

Results flagged for a closer look

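Of 27 sets of a member in a group, 6 held a library set far apart from the others of its group by Dixon's ratio on log2(CPM + 1). Chance flags about 1 in 20 groups of normally spread values. That rate does not hold for Apob and Cd36, which were at 0 in 10 and 14 of 17 libraries. Plin2 was at 49.9 CPM in the central library of mouse 5, far below the next lowest of that group at 212 CPM. The same library was highest for Abca1 and Abcg1 and had the highest mitochondrial share. Mttp was at 1.20 CPM (27 counts) in the GFP+ library of mouse 3, with the next lowest at 15.2 CPM. Cd36 was at 15.4 CPM (183 counts) in the central library of mouse 1, where the other 5 central libraries had 0. Cd36 was also at 0.477 CPM (6 counts) in peripheral GFP- RPE of mouse 5. Apob was at 0.739 CPM (4 counts) in the central library of mouse 5 and at 0.198 CPM (2 counts) in peripheral GFP- RPE of mouse 7, near or under the floor of 3 counts.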

How the results depend on the processing

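No member was called under any alternative. The numbers of genes called are given for GFP+ over central, GFP+ over peripheral GFP- and peripheral GFP- over central RPE. They were 4, 4 and 0 as reported, and 206, 66 and 28 with DESeq2. With the mouse as a replicate block they were 56, 0 and 0, with the run as a covariate 1, 1 and 0, and with Ddhd1 as a covariate 1, 0 and 0. A filter of 10 counts in 5 libraries left 2 for GFP+ over central RPE, mice 4 to 7 alone gave 1, 0 and 0, and mice 1 to 3 alone gave 0 for GFP+ over peripheral GFP- RPE. The fit of all 3 groups gave 0 there too. Leaving out 1 library gave 1 to 3 calls for GFP+ over central RPE, 0 to 5 for GFP+ over peripheral GFP- RPE and 0 for peripheral GFP- over central RPE.

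Log2 fold changes that changed sign were small or had wide intervals, and the cause was not tested. Under the replicate block Nr1h2 was at 0.35 and Plin2 at -0.035 over central RPE, and Apoe at 0.16 for peripheral GFP- over central RPE. In mice 1 to 3 alone Mttp was at -0.34 and Plin2 at -0.28 for GFP+ over central, Nr1h2 at 0.31 for GFP+ over peripheral GFP-, and Apoe at 0.081, Scarb1 at -0.50 and Nr1h2 at -0.93 for peripheral GFP- over central RPE. In mice 4 to 7 alone Scarb1 was at 0.19 for GFP+ over central and Mttp at 0.73 for peripheral GFP- over central RPE. For the last comparison Nr1h2 was at -0.024 with median-of-ratios factors, -0.043 without mitochondrial genes and -0.019 with the run as a covariate, and Mttp at 0.049 without the filter. With Ddhd1 as a covariate Nr1h2 was at 0.85 and Plin2 at -0.22 for GFP+ over central, Abca1 at 0.10 for GFP+ over peripheral GFP-, and Scarb1 at -0.011 and Plin2 at -0.16 for peripheral GFP- over central RPE. Leaving out 1 library turned the sign in the ranges -0.65 to 0.59 (Nr1h2) and -0.17 to 0.20 (Plin2) over central RPE and -0.62 to 0.73 (Nr1h2, GFP+ over peripheral GFP-). For peripheral GFP- over central RPE these ranges were -0.25 to 0.12 (Apoe), -1.02 to 0.60 (Mttp), -1.06 to 0.99 (Nr1h2) and -0.27 to 0.58 (Scarb1).

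For GFP+ over central RPE, Abca1 ranged from -1.90 to -1.09 and Abcg1 from -3.07 to -1.88 when 1 library was left out, with unadjusted p under 0.05 in 12 of 12 fits each (adjusted p 0.134 to 0.737 and 0.0613 to 0.581). Both were nearest 0 without the central library of mouse 5. Mttp, Nr1h2 and Cd36 were at 0 in 3, 1 and 14 of 17 libraries, and whether the gene was unused or its RNA was missed there was not tested.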
